A study of Mus musculus with 20 samples.

Results

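Among the promoter-type regions that carried trimethylated lysine 4 of histone H3 (H3K4me3) in both fetal and adult hematopoietic stem cells (HSCs), 1222 carried a peak of trimethylated lysine 27 (H3K27me3) in the fetal cells and none in the adult cells. They were chosen by overlap of the deposited peak lists. The fetal and adult H3K4me3 peaks on chromosomes 1 to 19 were merged where they shared at least 1 base, which gave 17586 regions. Of these, 14892 held an H3K4me3 peak of both stages, and the 1222 were those that overlapped a fetal H3K27me3 peak and no adult one. The other regions of both stages are used for comparison. They comprised 1962 with H3K27me3 at both stages, 11655 with none and 53 with adult H3K27me3 only. Because the H3K27me3 peaks chose the regions, their H3K27me3 is given as a description, while H3K27ac and H3K4me1 were not part of the choice. H3K4me3 length was not a criterion, but it was not free of the choice. The regions span the H3K4me3 peaks of both lists, so a longer adult peak could itself reach fetal H3K27me3.

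All cells came from B6129SF1 mice. Fetal HSCs were sorted from embryonic day 14.5 liver and adult HSCs from bone marrow of mice aged 6 to 8 weeks, with 1 gate for both stages that kept cells without lineage markers or CD135 and with Sca1 and cKit. That gate can hold early progenitors besides stem cells, and the labels name no further marker. Chromatin immunoprecipitation followed by sequencing (ChIP-seq) was done on 50000 sorted cells per reaction for H3K4me3, acetylated lysine 27 (H3K27ac), monomethylated lysine 4 (H3K4me1) and H3K27me3, with 2 replicates per mark and stage and an input at each stage.

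H3K4me3 is laid down at active and poised promoters. H3K27me3 is written by Polycomb repressive complex 2 and marks silent or weakly used genes, many of them regulators of development. Regions that hold both marks are called bivalent, a state described for promoters in embryonic and tissue stem cells that can resolve to either mark alone. H3K27ac occupies the same lysine as H3K27me3, so that a single histone tail can carry only one of these marks, and it is typical of active promoters and enhancers. H3K4me1 is found at enhancers and on the shoulders of promoters.

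For each mark and stage there was 1 deposited peak list, which its title calls combined. The values therefore have no replicate error, no test between stages or between classes of regions could be made, and a difference between stages cannot be told apart from one between the libraries or the peak calls. Values in parentheses after a share are the bounds of its 95% exact Clopper-Pearson interval. They cover counting error over regions only, and neighbouring regions are not independent. In pooled cells, a mark in fewer cells and a weaker mark in each cell cannot be told apart. The H3K27me3 lists were of different kinds, with 14579 fetal peaks of median width 1408 bp and 22831 adult peaks of median width 280 bp on chromosomes 1 to 19. The read depth behind the lists is unknown. Coordinates are 1-based in mm9, the build in the submitters' processing notes. No gene positions of that build were used here, so regions are named by position, their genes are not named, and the sorted cells were not checked against marker genes.

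Fetal H3K27me3 typically lay over one side of the region. It covered a median of 973.5 bp inside the region (quartiles 665.5 and 1394), or 58.6% of its length. In 737 regions (60.3%, 57.5 to 63.1) it ran past one end and left the other end free. It covered the whole region in 275 (22.5%, 20.2 to 24.95), ran past both ends with a gap inside in 112 (9.17%, 7.61 to 10.9) and lay within the region in 98 (8.02%, 6.56 to 9.69). Where H3K27me3 was listed at both stages the picture differed, as the fetal mark then covered the whole region in 1362 of 1962 (69.4%, 67.3 to 71.5).

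The fetal H3K27me3 peaks were also narrower and lower scoring than those at regions marked at both stages. The widest fetal H3K27me3 peak touching a region had a median width of 1788.5 bp (quartiles 1158 and 2845.75), against 4545.5 bp (3066 and 7011.5) where the mark was at both stages. The best score, taken from the authors' peak lists, stood at a median percentile of 60.8 in the fetal H3K27me3 list against 87.8. Whether a region also had an adult peak moved with the fetal score. Among all 3184 regions with fetal H3K27me3, the share without an adult peak was 82.0% (79.2 to 84.6) in the lowest quartile of that score, 47.0% (43.5 to 50.5) in the second, 18.6% (15.9 to 21.5) in the third and 5.90% (4.37 to 7.77) in the highest. The part that peak calling took in these absences was not tested.

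Adult H3K27me3 was nearer to the 1222 regions than to regions without H3K27me3. The nearest adult peak was a median of 90109.5 bases away, with a lower quartile of 17375 bases, against a median of 137932 bases for regions without the mark. It lay within 1 kb of 128 regions (10.5%, 8.81 to 12.3) and within 5 kb of 208 (17.0%, 15.0 to 19.2), against 1.94% (1.70 to 2.21) of regions without H3K27me3 within 5 kb. In these cases the adult mark had a peak beside the region.

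Membership turned on single bases at its limits. Just inside, fetal H3K27me3 reached 1 base into a region on chromosome 19 from 5097962 to 5098769, 4 bases into one on chromosome 15 from 78870664 to 78872243, and 5 bases into one on chromosome 19 from 44619363 to 44620764. Just outside, adult H3K27me3 took 1 base of a region on chromosome 5 from 75462726 to 75464038, 6 bases of one on chromosome 3 from 86977659 to 86979170, and 7 bases of one on chromosome 12 from 119436718 to 119437981. On the other limit, fetal H3K27me3 stopped 4 bases short of a region on chromosome 8 from 46712636 to 46713954, 13 bases short on chromosome 11 from 83253267 to 83254818, and 16 bases short on chromosome 2 from 131969712 to 131971745. At least 500 bp of fetal H3K27me3 was held by 1069 of the regions, and in 1207 (98.8%, 98.0 to 99.3) that mark overlapped the fetal H3K4me3 peak itself. The count depended on the score limit, as 218 regions met the rule when only peaks at or above the median score of each list were used.

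The layout of the marks was drawn for the 903 regions (73.9%, 71.3 to 76.3) with a side. These were regions in which the midpoint of fetal H3K27me3 within the fetal H3K4me3 span lay off its centre by any distance. The distance had a median of 371.5 bp (quartiles 160.5 and 609), and the mark itself could cross the centre. The side was the one that held the midpoint. Each was turned so that this side faces right. Fetal H3K27me3 covered 44.7% of them at the centre, 85.7% at 500 bp on its own side and 16.6% at 500 bp on the other side. The adult H3K27me3 list covered none of the 903 at the centre and 17 of them (1.88%) at 1000 bp on that side. Fetal H3K4me1 had a summit on each shoulder, of 46.5% at 500 bp on the H3K27me3 side and 36.4% at 600 bp on the other side, with 26.5% at the centre. Fetal H3K27ac covered 47.3% at 500 bp on the H3K27me3 side and 49.9% on the other side, and adult H3K27ac 58.5% and 59.5%. Further out the fetal acetylation leaned away from H3K27me3, with 27.8% at 800 bp on the H3K27me3 side and 36.7% on the other side, against 32.1% and 33.6% in the adult list.

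**Figure D1:**
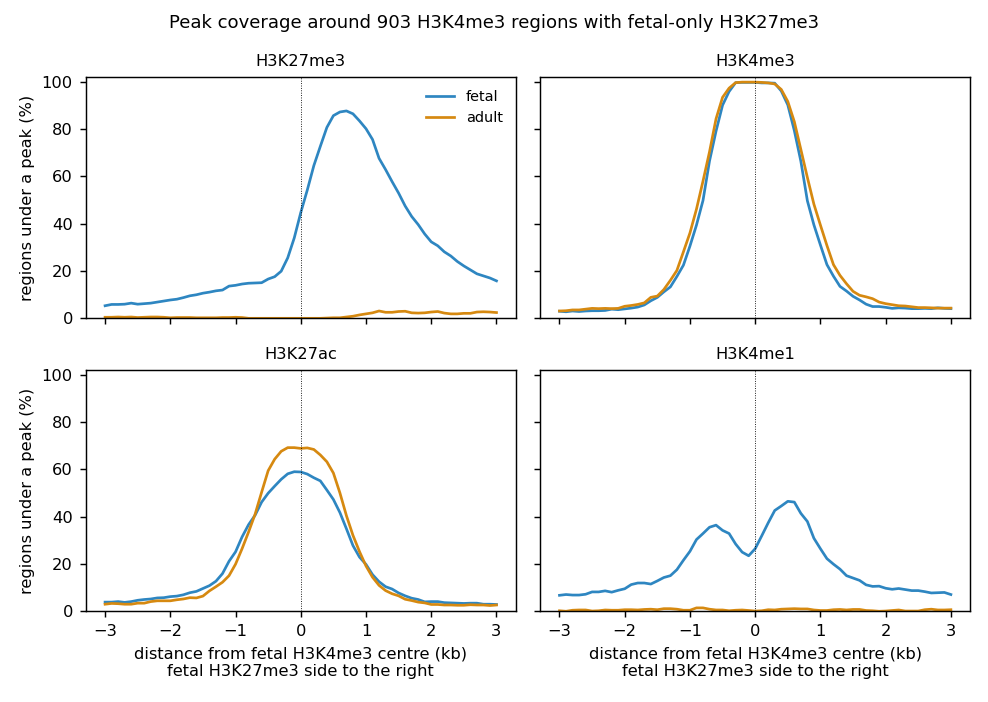
Share of 903 regions with fetal-only H3K27me3 that lay under a peak of each mark (y axis, percent) by distance from the centre of the fetal H3K4me3 peak (x axis, kb), with the fetal H3K27me3 side to the right. Fetal H3K27me3 was highest on the right by the way regions were turned, H3K4me3 of both stages was nearly symmetrical, adult H3K27ac reached 68.9% at the centre against 58.9% in the fetal list, and adult H3K4me1 stayed close to 0.

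The regions with the most fetal H3K27me3 inside them were long and varied in their other marks. The first, on chromosome 19 from 43683218 to 43691876 (8659 bp), held 7379 bp of fetal H3K27me3. Its H3K4me3 covered 8351 bp in the fetal and 8417 bp in the adult list, and its H3K27ac 5350 and 6391 bp, so both active marks were called there at each stage. The second, on chromosome 6 from 88143154 to 88154095 (10942 bp), held 6178 bp of fetal H3K27me3 in 2 peaks. There the fetal lists split H3K4me3 into 3 peaks of 1822, 5785 and 2013 bp and H3K27ac into separate peaks, while in the adult list a single H3K4me3 peak of 10942 bp and a single H3K27ac peak of 10926 bp spanned it. The next, on chromosome 17 from 30021195 to 30027290, had 3482 bp of fetal H3K27me3, H3K4me3 of 4119 and 6096 bp and H3K27ac of 2968 and 4921 bp, each longer in the adult list.

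The other 2 of these 5 had H3K27ac at one stage. On chromosome 15 from 85500118 to 85503542, H3K27me3 covered 99.4% of the region in the fetal list and no H3K27ac was called there. In the adult list H3K27ac covered 2862 bp, and H3K4me3 was 3425 bp long against 2040 bp. The opposite order was seen on chromosome 3 from 30411305 to 30414957, where H3K27ac covered 2562 bp in the fetal and none in the adult list, although H3K4me3 was again longer in the adult list, at 3653 bp against 2303 bp. Regions without adult H3K27me3 thus included single cases with H3K27ac at either stage.

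**Figure D2:**
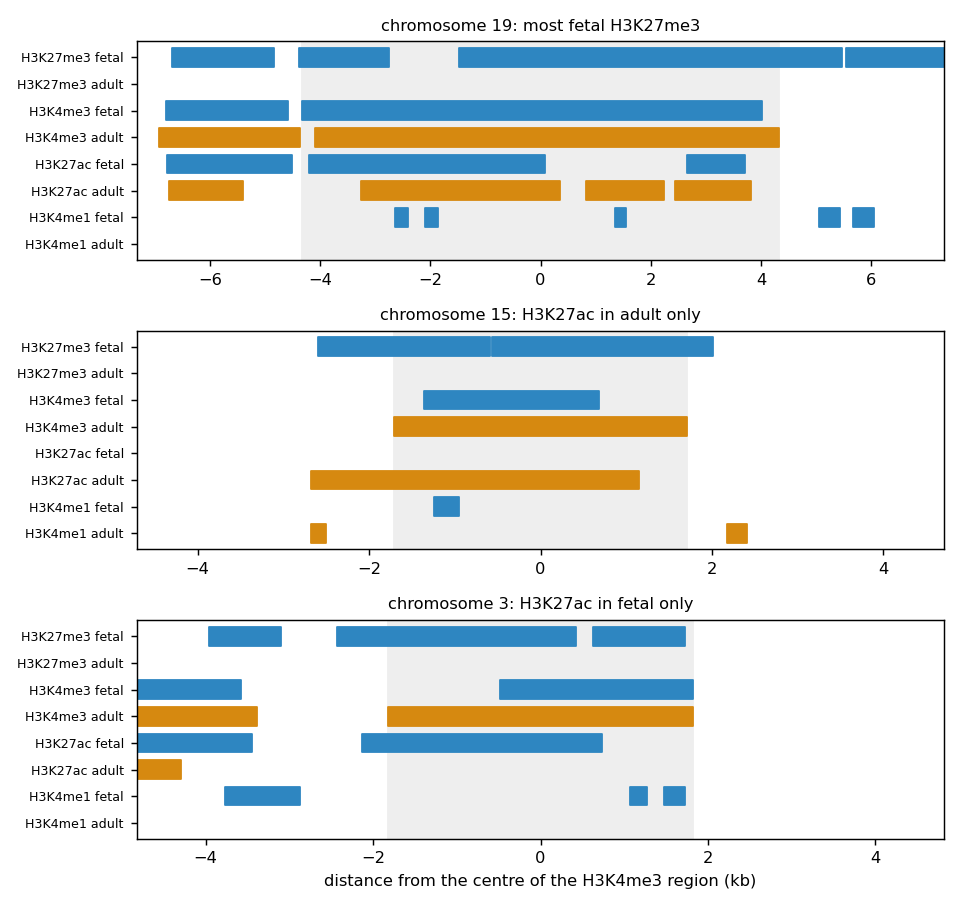
Peaks of the 4 marks (rows, blue fetal and orange adult) at 3 regions with fetal-only H3K27me3, by distance from the centre of the H3K4me3 region (x axis, kb), with the region shaded grey. The region on chromosome 19 has both active marks at both stages, that on chromosome 15 has H3K27ac in the adult list only (2862 bp) and that on chromosome 3 in the fetal list only (2562 bp), and no adult H3K27me3 is drawn in any.

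H3K4me3 was slightly longer in the adult list at most of the 1222 regions. Its median length was 1489.5 bp (quartiles 1152.5 and 1989.5) in the fetal and 1618.5 bp (1287.75 and 2172) in the adult list. Per region, the adult length was a median of 1.08 times the fetal one, or 0.11 on the log2 scale (quartiles 0.0017 and 0.25), and 129 bp more. The adult peak was the longer one at 922 regions (75.5%, 72.9 to 77.8), against 56.5% of all 14892 regions of both stages. It was the longer one at 57.1% (54.9 to 59.3) of regions with H3K27me3 at both stages and at 54.6% (53.6 to 55.5) of those without H3K27me3. The difference between these classes was not tested.

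Large differences were rare and mostly in the same direction. An adult length of at least 1.5 times the fetal one was found at 65 regions (5.32%, 4.13 to 6.73), against 3.10% of all regions of both stages. Among the 1207 regions with fetal H3K27me3 on the fetal H3K4me3 peak itself, the share was 4.97% (3.81 to 6.35). The reverse, a fetal length of at least 1.5 times the adult one, was found at 6 regions (0.491%, 0.180 to 1.07), against 1.10% of all. In regions with H3K27me3 at both stages these shares were 4.74% (3.84 to 5.78) and 3.31% (2.57 to 4.20), with long adult and long fetal peaks nearer in number. Of the 65 regions, 45 were in the shortest quartile of fetal H3K4me3 length. In that quartile the share was 9.93% (7.34 to 13.1), against 9.83% (8.89 to 10.8) of all regions of both stages, a share near that of all regions of similar length.

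**Figure D3:**
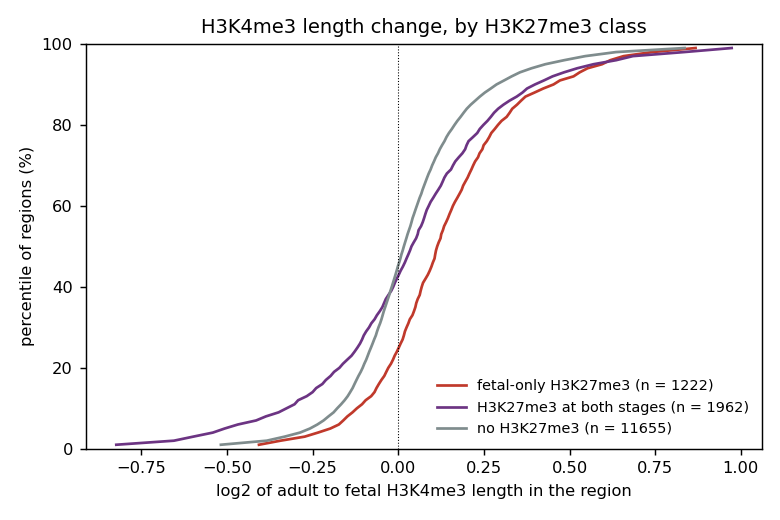
Percentiles of the log2 ratio of adult to fetal H3K4me3 length (x axis) for regions with fetal-only H3K27me3, with H3K27me3 at both stages and with none (y axis, percent of regions, 1 to 99). The curve of the fetal-only class lies to the right of the other curves over most of its range, with medians of 0.11, 0.04 and 0.02, and meets that of the both-stage class at its upper end.

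Among regions with at least 500 bp of H3K4me3 in each list, the largest difference towards the adult was on chromosome 17 from 36257411 to 36260294. H3K4me3 covered 740 bp of it in the fetal and 2884 bp in the adult list, 3.90 times as much, and H3K27ac 980 and 2428 bp. Fetal H3K27me3 took only 159 bp at one end of that region. It ended at 36257569 and the fetal H3K4me3 peak began at 36258458, so only the adult H3K4me3 peak overlapped it. On chromosome 1 from 128726409 to 128727789 the lengths were 574 and 1381 bp (2.41 times), and H3K27me3 had covered 97.9% of the region in the fetal list. The other 3 of the 5 regions with the largest differences were 1.96 to 2.08 times longer in the adult list. Only 2 of these 5 carried H3K27ac, at both stages. Of all 65 regions past 1.5-fold towards the adult, 25 had H3K27ac at both stages, 12 in the adult list only, 4 in the fetal list only and 24 at neither.

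The 5 regions with the largest difference towards the fetal list were 1.52 to 1.91 times longer there. The first, on chromosome 3 from 80604080 to 80605430, had 1351 bp of fetal and 709 bp of adult H3K4me3 and no H3K27ac. In 4 of these 5 an adult H3K27me3 peak lay close by, at 375, 575, 793 and 1301 bases from the region, and in the other the nearest was 732987 bases away. With the 208 regions near adult H3K27me3 left out, 0.0986% of the remaining 1014 had a fetal length of at least 1.5 times the adult one.

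How often the adult peak was the longer one varied with H3K4me3 length, so the comparison was also read within quartiles of fetal H3K4me3 length over all regions of both stages. Fetal length is itself part of the ratio, so a fall from short to long quartiles can arise from the way they were set. Over all regions of both stages the share fell from 76.1% in the shortest to 37.8% in the longest quartile. Only classes within a quartile are compared here. From the shortest to the longest quartile, the adult peak was the longer one at 82.8% (79.0 to 86.1), 73.4% (68.8 to 77.6), 76.1% (69.6 to 81.8) and 59.3% (51.3 to 66.9) of the regions with fetal-only H3K27me3. In regions without H3K27me3 the shares were 78.7% (77.0 to 80.3), 64.3% (62.4 to 66.1), 47.5% (45.8 to 49.2) and 36.7% (35.1 to 38.4). The classes thus lay closest together among the shortest peaks, and their intervals did not overlap in the other quartiles.

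The extra adult length was on both sides. In the 903 regions with a side, the adult H3K4me3 edge lay further out than the fetal edge by a median of 58 bp on the H3K27me3 side (quartiles -26 and 145.5) and 52 bp on the other side (-17 and 122). The outward shift was the larger one on the H3K27me3 side in 471 regions (52.2%, 48.8 to 55.5) and on the other side in 431 (47.7%, 44.4 to 51.0). In 580 regions with H3K27me3 at both stages and a side, the median shifts were -9.5 and -0.5 bp. Counted in bases, 65.2% of the 258695 bp with H3K4me3 in the adult list only lay under fetal H3K27me3, against 56.7% of all bases of the regions and 55.5% of those with H3K4me3 at both stages. Fetal-only H3K4me3 bases were at 59.0%. In regions with H3K27me3 at both stages, 93.1% of adult-only H3K4me3 bases lay under fetal H3K27me3, against 86.4% of all bases.

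H3K27ac was more often called in the adult list than in the fetal list at these regions. Fetal H3K27ac was present at 648 of 1222 (53.0%, 50.2 to 55.9), against 78.6% of all regions of both stages. Adult H3K27ac was present at 799 (65.4%, 62.6 to 68.1), against 79.6% of all. At 584 (47.8%, 45.0 to 50.6) it was called at both stages, against 74.0% of all. Adult-only H3K27ac was found at 215 regions (17.6%, 15.5 to 19.8), against 5.60% of all regions of both stages. Only regions without fetal H3K27ac can be adult-only. Among the 1222, such regions were 215 with adult-only H3K27ac and 359 with none. Over all regions of both stages they were 834 and 2348. Fetal-only H3K27ac was found at 64 (5.24%, 4.06 to 6.64), against 4.67% of all, a share near that of all regions. With equal numbers of top-scoring peaks per mark from both stages, the rule chose 1439 regions. Of these, 28.5% had adult-only H3K27ac, 18.1 points above all regions of both stages under that setting, and 1.67% had fetal-only H3K27ac. For H3K27ac this setting cut only the fetal list, from 23368 peaks to the 17834 of the adult list. At a given region it can therefore only add adult-only and remove fetal-only calls. The remaining 359 of the 1222 (29.4%, 26.8 to 32.0) had H3K27ac at neither stage, against 15.8% of all regions of both stages.

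The class stood between the other classes in its acetylation. Of the regions without H3K27me3, 90.3% (89.8 to 90.9) had fetal H3K27ac and 88.7% (88.1 to 89.3) adult H3K27ac. Regions with H3K27me3 at both stages had it in 25.4% (23.5 to 27.4) and 34.6% (32.5 to 36.7). Adult-only H3K27ac was found in 14.9% (13.3 to 16.5) of these last, where adult H3K27me3 was still listed. It was found in 2.80% (2.51 to 3.11) of regions without H3K27me3. These shares are of all regions in a class, and only regions without fetal H3K27ac can be adult-only. In the both-stage class such regions were 292 with adult-only H3K27ac and 1172 with none. Without H3K27me3 they were 326 and 802, and in the fetal-only H3K27me3 class 215 and 359. On that base the both-stage class had the lowest share of these classes. The difference between the classes with fetal H3K27me3 was not tested. As a share of all regions, the direction of this difference varied with H3K4me3 length. From the shortest to the longest quartile of fetal length, adult-only H3K27ac was found at 18.3%, 26.8%, 9.95% and 1.85% of regions with fetal-only H3K27me3. It was found at 10.4%, 21.2%, 18.0% and 10.3% of those with H3K27me3 at both stages, which were thus higher in the longer quartiles. Regions with fetal H3K27ac cannot be adult-only. In the third and longest quartiles, 85.1% and 95.7% of the fetal-only H3K27me3 class had fetal H3K27ac, against 51.5% and 69.7% of the both-stage class.

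**Figure D4:**
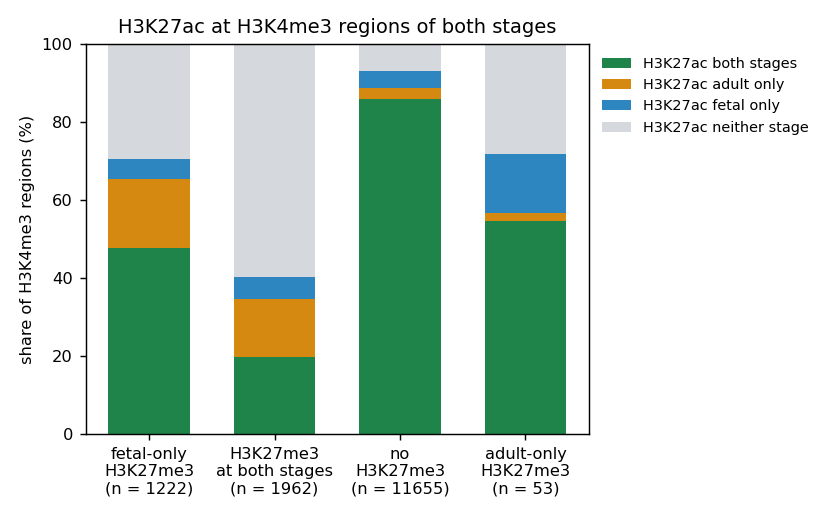
Share of H3K4me3 regions of both stages (y axis, percent) with H3K27ac at both stages, in the adult list only, in the fetal list only or at neither stage, in 4 classes of H3K27me3. Adult-only H3K27ac makes up 17.6% of the class with fetal-only H3K27me3, 14.9% of the class with H3K27me3 at both stages and 2.80% of the class without.

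Fetal H3K27me3 covered a larger share of the length of regions that lacked fetal H3K27ac than of those that had it. It covered a median of 80.4% (quartiles 49.6 and 100) of the 215 regions with adult-only H3K27ac and 79.1% (53.0 and 100) of the 359 with H3K27ac at neither stage, against 44.1% (29.9 and 68.6) in the 584 with H3K27ac at both stages and 56.1% (37.0 and 96.8) in the 64 with fetal-only H3K27ac. In bases, the medians in the same order of classes were 1197, 950, 945 and 789.5 bp. The regions had median lengths of 1607, 1255, 2165 and 1408.5 bp. The classes with H3K27ac at neither and at both stages thus differed in region length and hardly in H3K27me3 bases. In the adult-only class, H3K4me3 had a median length of 1416 bp in the fetal and 1590 bp in the adult list, and the adult peak was the longer one at 183 (85.1%, 79.6 to 89.6). At the regions with H3K27ac at both stages this share was 74.0% (70.2 to 77.5), at those with neither 74.7% (69.8 to 79.1), and at those with fetal-only H3K27ac 60.9% (47.9 to 72.9).

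The 359 regions without H3K27ac at either stage were the shortest, with a median H3K4me3 length of 1081 bp in the fetal and 1196 bp in the adult list. They and the regions with fetal-only H3K27ac lay nearer to adult H3K27me3. An adult H3K27me3 peak was found within 5 kb of 29.0% (24.3 to 34.0) of the former and 29.7% (18.9 to 42.4) of the latter, against 11.2% (7.28 to 16.2) of those with adult-only H3K27ac and 10.4% (8.08 to 13.2) of those with it at both stages. Regions with H3K27ac in the adult list were thus less often beside an adult H3K27me3 peak.

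Where H3K27ac was called at both stages, its length was split nearly evenly. The adult list had the longer H3K27ac at 310 of the 584 regions (53.1%, 48.9 to 57.2) and the shorter one at 268 (45.9%, 41.8 to 50.03). Across all regions of both stages with H3K27ac at both, the adult list had the longer one at 30.03% (29.2 to 30.9). The fetal H3K27ac list has a median peak width of 1860.5 bp and the adult list one of 1641 bp. In bases, 68.9% of the 392931 bp with H3K27ac in the adult list only lay under fetal H3K27me3, against 40.9% of the 919384 bp with H3K27ac at both stages. Bases acetylated in the fetal list only were at 56.5%, near the 56.7% of all bases of the regions. Shared H3K27ac bases were thus below all bases and adult-only ones above. In regions with H3K27me3 at both stages the shares were 88.0% for adult-only, 72.5% for fetal-only and 65.7% for shared H3K27ac bases. All bases of those regions were at 86.4%. The order was the same there, but adult-only bases were near all bases and the others below them.

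Among the adult-only H3K27ac regions, the one with the most acetylation also had a longer adult H3K4me3 peak. On chromosome 4 from 101179962 to 101183387, adult H3K27ac covered 3156 bp, H3K4me3 was 1852 bp long in the fetal and 3426 bp in the adult list, and a fetal H3K27me3 peak of 1794 bp lay inside the region. The region on chromosome 15 described above followed with 2862 bp and a similar lengthening. In the other 3, fetal H3K27me3 covered 99.4% to 100% of the region, and the adult H3K4me3 was 1.05 to 1.23 times as long as the fetal one. These lay on chromosome 4 from 57312073 to 57315364, with 2387 bp of adult H3K27ac and H3K4me3 of 3005 and 3292 bp, on chromosome 9 from 96917388 to 96920046, with 2309 bp and H3K4me3 of 2154 and 2659 bp, and on chromosome 11 from 69615711 to 69618199, with 2262 bp and H3K4me3 of 2360 and 2489 bp.

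At the fetal-only end, the region on chromosome 3 described above had the most fetal H3K27ac. It was followed by chromosome 15 from 8518202 to 8520267, with 1931 bp of fetal H3K27ac and 672 bp of fetal H3K27me3. On chromosome 18 from 38344494 to 38346335 all 1842 bp of the region lay under both fetal H3K27ac and fetal H3K27me3, and on chromosome 3 from 104855147 to 104856835 the same held for all 1689 bp. On chromosome 17 from 28905782 to 28907541 fetal H3K27ac covered 1708 bp and H3K4me3 was 1760 bp long in the fetal and 1357 bp in the adult list, the only one of these 5 in which it was shorter in the adult.

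Since the fetal score of H3K27me3 separated the classes, H3K27ac and H3K4me3 were compared within quartiles of that score. In the lowest quartile, adult H3K27ac was found at 68.5% (64.7 to 72.0) of 653 regions with fetal-only H3K27me3 and at 48.3% (39.8 to 56.8) of 143 with the mark at both stages. In the highest quartile the shares were 66.0% (50.7 to 79.1) of 47 and 28.0% (24.8 to 31.4) of 749. Fetal H3K27ac differed between the classes as well, at 51.1% (36.1 to 65.9) against 16.7% (14.1 to 19.6) in the highest quartile and 59.6% (55.7 to 63.4) against 51.0% (42.6 to 59.5) in the lowest. Adult-only H3K27ac, which regions with fetal H3K27ac cannot have, differed less as a share of all regions. It was 14.4% (11.8 to 17.3) against 11.2% (6.53 to 17.5) in the lowest quartile, 27.03% (20.1 to 34.9) against 15.7% (13.0 to 18.8) in the third, and 17.0% (7.65 to 30.8) against 15.4% (12.8 to 18.1) in the highest, where 47 regions give little precision.

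The longer adult H3K4me3 was also seen within score quartiles. The adult peak was the longer one at 72.3% (68.7 to 75.7) against 38.5% (30.5 to 47.0) of regions in the lowest quartile, at 77.3% (72.7 to 81.4) against 47.9% (43.0 to 52.8) in the second and at 85.8% (79.1 to 91.0) against 59.6% (55.7 to 63.4) in the third. In the highest quartile the intervals overlapped, at 72.3% (57.4 to 84.4) against 63.8% (60.3 to 67.3).

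**Figure D5:**
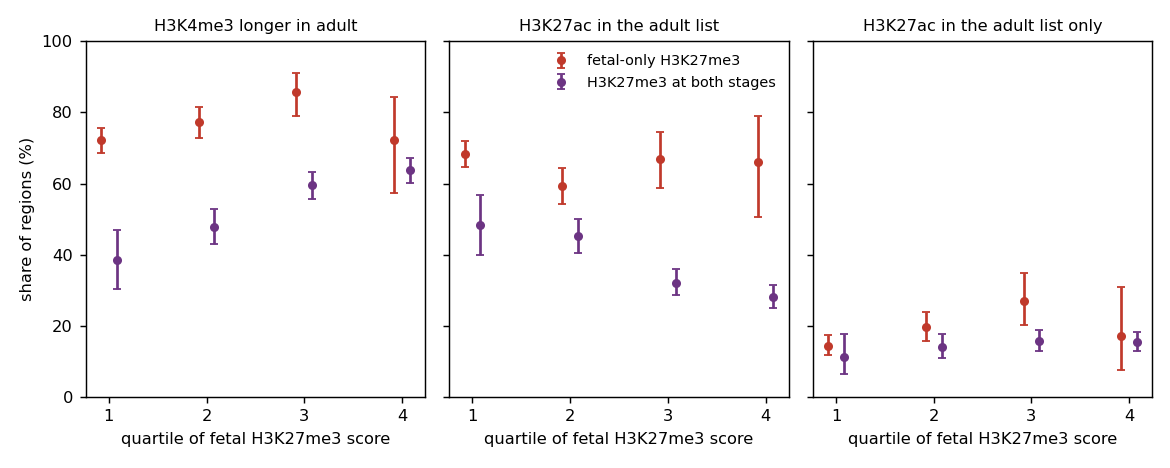
Share of regions (y axis, percent, with 95% exact intervals) whose H3K4me3 was longer in the adult list, that had adult H3K27ac, or that had it in the adult list only, by quartile of the best fetal H3K27me3 score (x axis, 1 lowest). Points for fetal-only H3K27me3 lie above those for H3K27me3 at both stages in all quartiles, with overlapping intervals in quartile 4 for length and in quartiles 1, 2 and 4 for adult-only H3K27ac.

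H3K4me1 shares were near those of all regions. Fetal H3K4me1 was found at 1061 regions (86.8%, 84.8 to 88.7) and adult H3K4me1 at 108 (8.84%, 7.31 to 10.6), against 89.0% and 11.2% of all regions of both stages. Fetal-only H3K4me1 was found at 955 regions (78.2%, 75.7 to 80.4), against 77.9% of all. Adult-only H3K4me1 was found at 2 (0.164%, 0.0198 to 0.590), against 0.161% of all. The fetal H3K4me1 list holds 92339 peaks of median width 430 bp and the adult list 12502 of 193 bp. With equal numbers of top-scoring peaks, the fetal share was 14.1% of the 1439 regions then chosen. Of the fetal H3K4me1 bases in these regions 66.2% lay under fetal H3K27me3, against 56.7% of all their bases. H3K4me1 was commonest where H3K27ac was at both stages, where 95.2% (93.1 to 96.8) had the fetal and 12.0% (9.46 to 14.9) the adult peak, and least common where H3K27ac was absent, at 75.2% (70.4 to 79.6) and 5.01% (2.998 to 7.81).

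Combined states besides H3K4me3 were counted for the 1222 regions only, so no pair of states is shown to be particular to them. Over all regions of both stages, 77.9% had H3K4me1 in the fetal list only. The commonest pair was H3K27ac with H3K4me1 in the fetal list and H3K27ac alone in the adult list, at 487 regions (39.9%). H3K4me1 without H3K27ac in the fetal list was followed by neither mark at 253 (20.7%) and by H3K27ac alone at 169 (13.8%). A further 88 regions (7.20%) had neither mark at either stage. H3K27ac and H3K4me1 were present at both stages at 69 (5.65%). Of the 648 regions with fetal H3K27ac, 584 had adult H3K27ac too, against 11015 of 11710 over all regions of both stages.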

How the data were processed

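ChIP-seq of 4 histone marks and input was described by the labels for 20 samples in 10 groups, with 2 replicates per group. Used here were the 8 deposited peak lists, 1 per mark and stage, which their titles call combined. The score of each peak is the authors' own value with no stated unit, and peak names start with MACS. Bowtie2 2.2.2 and mm9 are named in the submitters' processing notes. Caller settings and the control are not given in the sources used here. Single replicates, input and read counts were not analysed here.

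From the lists, H3K4me3 peaks were merged and the length of each mark per stage was summed within each region. Presence meant 1 shared base. Scores ranked peaks within a list only. Named regions were the 5 with most fetal H3K27me3, the 5 with the largest length difference in each direction (at least 500 bp in both lists), the 5 with most stage-only H3K27ac in each direction, and 3 at each limit. Regions, lists and alternatives were chosen with earlier results of these data known. Planned gene lists were not run, because gene positions of mm9 were not used here. The code was tested on simulated data. Python 3.11.15, numpy 2.4.6, pandas 2.3.3, scipy 1.17.1 and matplotlib 3.10.9 were used.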

Additional observations from a re-analysis of the deposited data

Results flagged for a closer look

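Chromosome X was outside the choice of regions and held 52 H3K4me3 regions with fetal-only H3K27me3 among 502 regions of both stages (10.4%), which is above the 3 counts that a count of 0 allows. H3K27ac was called at 6 of the 52 in the fetal and 11 in the adult list, against 330 and 334 of all 502. The adult H3K4me3 was the longer one at 40 of the 52, with a median log2 ratio of 0.18. The difference from the other chromosomes was not tested. Neither Y, with 3 regions of both stages, nor the unplaced contigs, with 21, held such a region.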

How the results depend on the processing

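No paired analysis was possible because the peak lists are combined ones without replicate columns, which also prevented leaving out a replicate. A value counts as moved outside the 95% interval of the reported one, or, for a number of regions, beyond 1.5-fold. For shares of adult-only bases, the interval treated the share as one of the regions that held such bases. It is a rough limit there and does not measure error in bases. Of 174 values 132 stayed and 42 moved. Only the log2 ratios and the differences from all regions could turn sign, and none of them did. The median log2 length ratio stayed between 0.07 and 0.13 and the excess of the regions over all regions between 17.3 and 25.6 points for longer adult H3K4me3 and between 11.7 and 18.1 points for adult-only H3K27ac, where this excess was a measure added after the data were seen. Unless the construction shows it, the cause was not tested.

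With peaks at or above the median score of each list, 218 regions were left. The median log2 ratio was 0.0724, 3.21% were past 1.5-fold towards the adult, H3K27ac was at 56.9% (fetal), 74.3% (adult) and 21.6% (adult only), and H3K4me1 at 72.5% and 5.96%. Fetal H3K27me3 covered 1055.5 bp or 40.9% and passed an end in 94.5%. Of adult-only bases, 52.0% (H3K4me3) and 53.4% (H3K27ac) lay under it, and the excesses were 25.6 and 15.4 points.

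With equal numbers of top-scoring peaks, 1439 regions met the rule. H3K27ac was at 35.6% (fetal), 62.5% (adult), 28.5% (adult only) and 1.67% (fetal only) of them, and fetal H3K4me1 at 14.1%. Fetal H3K27me3 covered 1025 bp or 62.0%, and the excess of adult-only H3K27ac was 18.1 points.

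With at least 500 bp of fetal H3K27me3, it covered 1072 bp or 65.6%, and 68.2% of adult-only H3K4me3 and 74.2% of adult-only H3K27ac bases lay under it. Without adult H3K27me3 within 1 kb, adult H3K27ac was at 69.3%. Within 5 kb it was at 70.4% and fetal H3K27ac at 56.0%, and 0.0986% were past 1.5-fold towards the fetal list. Including X gave fetal H3K4me1 at 83.8%. A fold of 2 left 0.327% towards the adult and 0% towards the fetal list. H3K4me1 within 1 kb was at 11.8% in the adult list.

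An alternative added after the data were seen kept fetal H3K27me3 scores at or above their median. The log2 ratio was 0.13, fetal H3K27ac 49.5%, H3K27me3 1174 bp, 75.03% and past an end in 98.0%, and 74.7% and 77.5% of adult-only H3K4me3 and H3K27ac bases lay under it. Restriction to H3K27me3 on the fetal H3K4me3 peak, added likewise, and merging within 1 kb, the widest peak and 500 bp of H3K27ac moved none of the values they were run for.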

Other observations

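The 1222 regions were spread over all 19 chromosomes. They made up between 6.33% (4.58 to 8.49, chromosome 13) and 10.7% (8.37 to 13.3, chromosome 15) of the H3K4me3 regions of both stages on each. Most stood singly, but one followed another in a larger share of cases than one followed any region of both stages. The next H3K4me3 region along the chromosome was another of them in 147 cases (12.0%, 10.3 to 14.0), had H3K27me3 at both stages in 200 (16.4%, 14.3 to 18.6) and had none in 873 (71.4%, 68.8 to 74.0). After any region of both stages, the next was one of the 1222 in 8.21% and had H3K27me3 at both stages in 13.2% of cases. There were 944 single regions, 117 pairs, 12 runs of 3 and 2 runs of 4. The runs of 4 lay on chromosome 18 from 36177310 to 36448126 and on chromosome 19 from 43673637 to 43691876, and the latter, of 18240 bp, ends with the region that held the most fetal H3K27me3.

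Distal H3K27ac, meaning H3K27ac peaks that overlapped no H3K4me3 peak, lay within 20 kb of 276 regions (22.6%, 20.3 to 25.04) when taken from the fetal list and of 171 (14.0%, 12.1 to 16.1) when taken from the adult list. Regions with H3K27me3 at both stages had it in 14.1% (12.6 to 15.7) and 5.76% (4.77 to 6.88), and regions without H3K27me3 in 30.1% (29.2 to 30.9) and 19.9% (19.2 to 20.6). Distal H3K27ac of the adult list without any fetal H3K27ac lay near 52 of the regions (4.26%, 3.19 to 5.54), against 4.82% of all regions of both stages.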
